A study of Mus musculus with 5 samples.

Results

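A group of 10 genes that restrain TGF-β signalling was followed across 5 microarrays of B16F1 mouse melanoma cells: the inhibitory SMADs Smad7 and Smad6, the membrane proteins Pmepa1 and Ldlrad4, the pseudoreceptor Bambi, the ubiquitin ligases Smurf1 and Smurf2, and the nuclear corepressors Ski, Skil and Tgif1. The genes were chosen by name as known negative regulators of the pathway, with earlier results of these data already known. Their probes were found through the RefSeq accession that the array files give for each probe. This gave 16 probes for the 10 genes, out of 32988 named probes for 22907 genes. The series asked how thymosin β4, the actin monomer-binding peptide encoded by Tmsb4x, relates to the response of these cells to TGF-β1 and to the actin-regulated coactivator MRTF. There were 5 arrays in 4 groups: wild-type B16F1 cells given vehicle (n = 1), wild-type cells given TGF-β1 (n = 1), wild-type cells given TGF-β1 together with CCG1423, an inhibitor of MRTF signalling (n = 1), and Tmsb4x knockout cells given TGF-β1 (n = 2, clones 1 and 2). TGF-β1 was used at 10 ng/ml and CCG1423 at 10 µM, both for 2 days, and all cells were grown in the same serum-containing medium. No treatment time was recorded for the vehicle array. The labels name both agents in the title of the CCG1423 array but only CCG1423 in its treatment field, and they call the Tmsb4x cells a knockout where the design text calls them a knockdown. No knockout array without TGF-β1 and no CCG1423 array without TGF-β1 was analysed here, so in each of these comparisons both sides carry TGF-β1.

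TGF-β binds a pair of receptor kinases at the cell surface, which phosphorylate SMAD2 and SMAD3. These join SMAD4 and act on target genes in the nucleus, and among those targets are genes whose products shut the same pathway down. SMAD7 occupies the activated receptor and brings in the SMURF ubiquitin ligases, PMEPA1 and LDLRAD4 hold SMAD2 and SMAD3 away from the receptor, BAMBI is a receptor-like protein without a kinase domain, and SKI, SKIL and TGIF1 recruit corepressors to SMADs on DNA. In melanoma cells SKI and SKIL are known for high abundance and for keeping SMAD activity low.

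Promoter sequence was set beside these genes because SMAD proteins recognise short DNA elements. RefSeq windows of 250 bases before an annotated start (GRCm38.p6) were examined for 5 of the 10 genes: Ski, Smurf1, Smad6 and Smurf2 with 1 window each and Tgif1 with 5. Smad6 and Tgif1 are shown as genes that were more than 2-fold higher with TGF-β1, and Ski as one that differed less. The Tgif1 window is the one before its most upstream start. Capitals mark CAGAC, the core of the CAGA box bound by SMAD3 and SMAD4, on either strand (GTCTG on the strand printed). Positions are Smad6 chr9:64022060-64022309, Tgif1 chr17:70853533-70853782 and Ski chr4:155222536-155222785, all on the minus strand.
Smad6: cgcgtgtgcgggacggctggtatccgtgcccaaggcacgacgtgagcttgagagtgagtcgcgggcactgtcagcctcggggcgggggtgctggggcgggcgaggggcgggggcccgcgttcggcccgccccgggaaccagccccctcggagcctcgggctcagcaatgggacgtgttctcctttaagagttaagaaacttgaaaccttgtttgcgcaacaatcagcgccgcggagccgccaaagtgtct
Tgif1: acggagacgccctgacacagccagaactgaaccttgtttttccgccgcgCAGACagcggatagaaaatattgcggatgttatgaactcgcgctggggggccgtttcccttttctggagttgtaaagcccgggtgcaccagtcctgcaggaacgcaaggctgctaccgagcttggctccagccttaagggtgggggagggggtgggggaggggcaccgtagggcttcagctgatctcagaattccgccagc
Ski: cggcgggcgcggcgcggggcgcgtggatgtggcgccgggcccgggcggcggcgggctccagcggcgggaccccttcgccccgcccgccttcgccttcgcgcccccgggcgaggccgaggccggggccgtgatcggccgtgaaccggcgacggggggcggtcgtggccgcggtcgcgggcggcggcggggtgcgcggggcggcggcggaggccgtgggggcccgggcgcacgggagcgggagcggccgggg
CAGAC was present once in this Tgif1 window, starting at position -201 from the annotated start, and was in neither the Smad6 nor the Ski window. Over the 9 windows of the 5 genes, 5 held CAGAC on at least 1 strand, against 42.2% of 32851 RefSeq windows of the same length. The palindromic SMAD element GTCTAGAC was in 0 of the 9 windows (0.167% of all windows) and the CArG box, the element of the MRTF partner SRF, in 0 of 9 (1.47% of all windows); none of these motifs contains another. No window was examined for Smad7, Pmepa1, Skil, Bambi or Ldlrad4. Smad7, Bambi and Ldlrad4 were left out by a rule on genome position, whatever their sequence, and no window was available for Pmepa1 and Skil. The counts of motifs, GTCTAGAC included, therefore say nothing about the promoters of these genes. The genes more than 2-fold higher with TGF-β1 were thus covered only by Smad6 and Tgif1. In the windows examined, the letters did not set these genes apart from the others, and binding was not measured.

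Levels are given as the log2 of the scanner software's processed signal minus the 75th percentile of the same array, so that 0 is the brightness of a probe at that percentile. They allow 1 probe to be compared between arrays, not 1 probe with another. A probe was called well above background by the software's own flag. Between 48.2% and 53.8% of probes passed that flag on each array, the 75th percentile lay between 230 and 329 signal units, and 0 spots were saturated. Detection began at a signal of 26.0 on clone 2's array and at 13.3 to 15.5 elsewhere. Of the 16 probes, 13 were well above background on all 5 arrays. A dimmer Smad7 probe was so on all but the vehicle array, and both Ldlrad4 probes were so on none. All 8 melanocyte markers listed (Mitf, Tyr, Tyrp1, Dct, Pmel, Mlana, Sox10 and Mc1r) were well above background on all 5 arrays, and the 4 epithelial markers on none. Of the other markers, 3 of 5 immune, 2 of 3 endothelial and 3 of 4 fibroblast genes were above background on none; Lum, a fibroblast matrix gene, was so on the vehicle array only (-1.78 there), Cd3e on all 5 and Pecam1 on 4. In RNA of a whole culture, a larger share of cells with an RNA and more of it per cell cannot be told apart.

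Tmsb4x itself read 5.05 (vehicle), 7.12 (TGF-β1), 6.79 (CCG1423), 5.44 (clone 1) and 4.28 (clone 2). Both clones lay below the wild-type TGF-β1 array, and clone 1 lay above the vehicle array. The difference of the clones from wild type under TGF-β1 was -2.26 on the log2 scale (SE 0.46) and did not pass the threshold (limma, adjusted p = 0.116). Where in the gene the edit lies is not given in the sources used here, so whether this probe overlies it is unknown. The level of this probe alone does not establish the knockout.

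**Figure D1:**
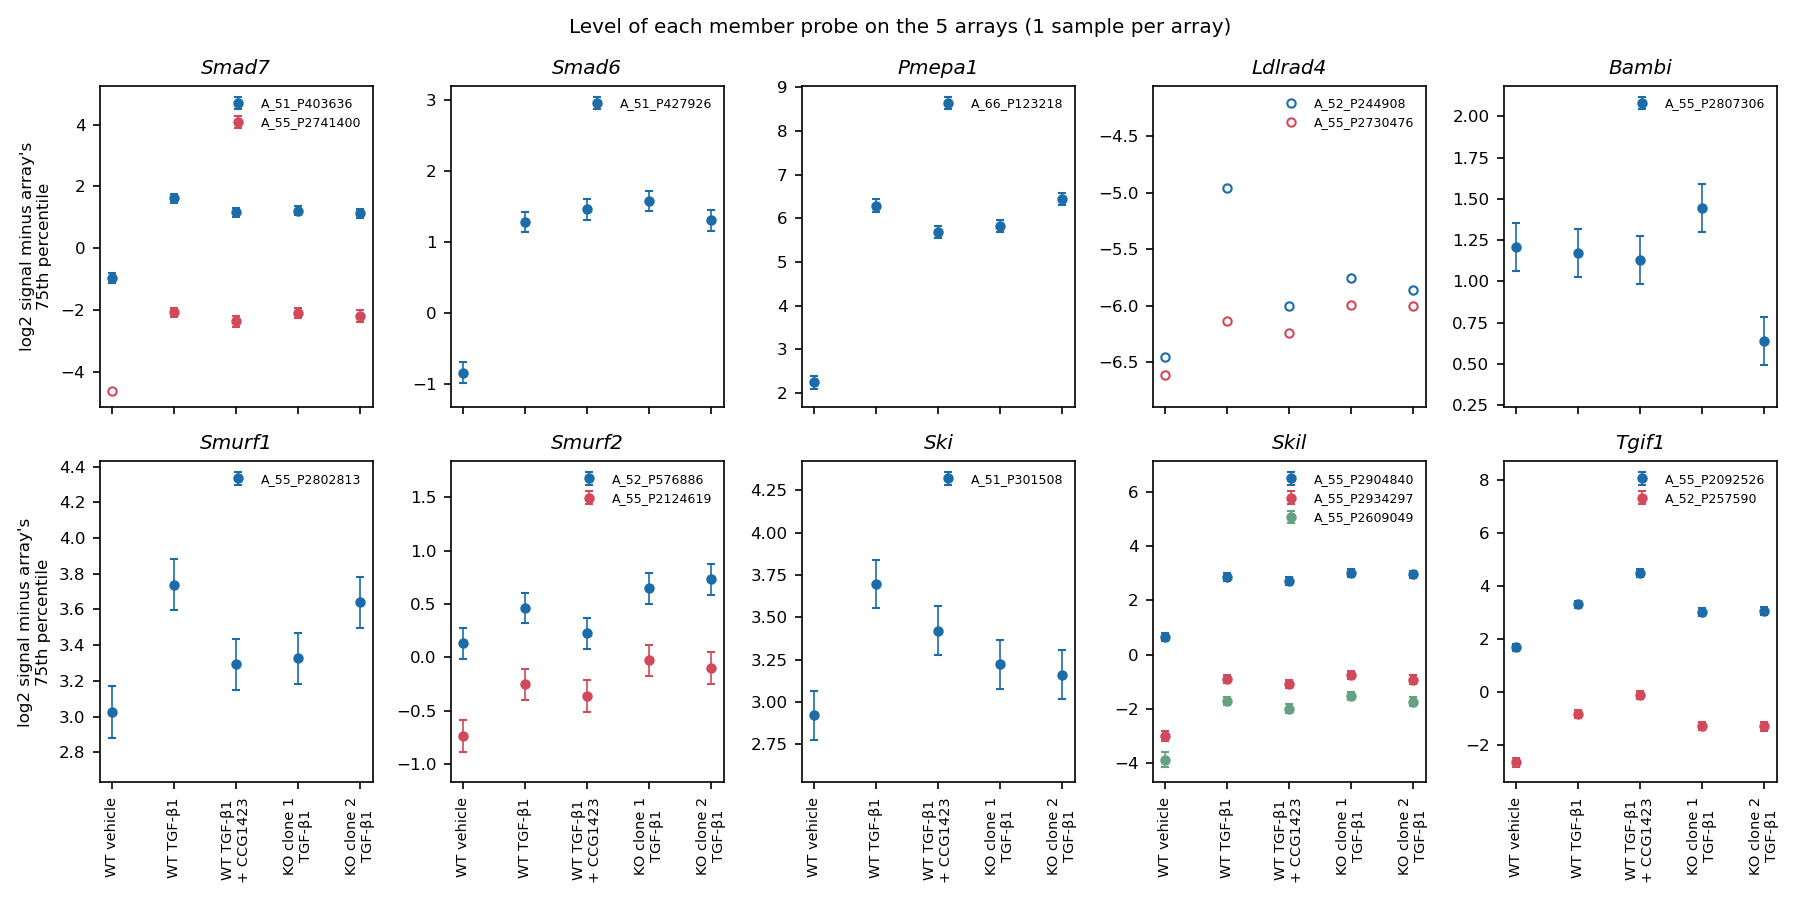
Normalized log2 signal (y axis, each panel with its own scale) of every probe of the 10 genes on the 5 arrays (x axis). Points are single arrays, error bars are the scanner software's own spot error, open points were not well above background; the vehicle array is the lowest for Smad7, Smad6, Pmepa1, Skil and Tgif1, and the CCG1423 array is the highest for Tgif1.

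The first comparison asks what 2 days of TGF-β1 did to these genes in wild-type cells. Pmepa1, Smad7, Skil, Smad6 and Tgif1 all exceeded the vehicle level by more than 2-fold with TGF-β1, Ski and Smurf1 were higher by less than that, Smurf2 by less again, and Bambi was nearly level. Of the 13 probes well above background on both arrays, 8 probes of 5 genes were at 2-fold or more higher and 0 lower, where 2.81% of all 28241 such probes were higher and 1.63% lower. The median log2 difference over the 13 probes was 1.83, and -0.05 over the 28241. With probes above background on either array kept, 9 of 14 were higher and 0 lower (4.56% and 3.53% of 31767 probes); the 1 probe added, the dimmer of Smad7, was kept only through the array where it was high. With 1 array per condition these differences have no replicate check and were not tested. The errors given with them come from the software's estimate for each spot and cover the array measurement alone, not the culture; for bright probes that error is about 0.20 for a difference of arrays on the log2 scale. Between the 2 knockout clones, the only arrays of the same group, 26191 probes well above background on both differed by a median of 0.27 and a 95th percentile of 0.95 in absolute log2 difference, and 3.50% of 30635 probes were at 2-fold or more higher in clone 1 and 4.51% lower.

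Smad7, the inhibitory SMAD that blocks the TGF-β receptor, was read by a pair of probes. The brighter (A_51_P403636) stood at -0.96 with vehicle, 1.62 with TGF-β1, 1.16 when CCG1423 was added, 1.22 in clone 1 and 1.13 in clone 2. The vehicle array was low, the wild-type TGF-β1 array highest, and the other 3 arrays lay close together between them. TGF-β1 against vehicle came to 2.58 on the log2 scale (software error 0.21), 5.998-fold. The dimmer probe (A_55_P2741400) read -2.08 with TGF-β1, -2.37 with CCG1423, -2.09 in clone 1 and -2.20 in clone 2, and was not well above background with vehicle, so TGF-β1 was at least 4.59-fold higher there. With normexp background correction in place of the software's, that probe's log2 difference was 0.95, under 2-fold, and the brighter probe's 2.09. By its log2 difference the brighter probe ranked 96 from the top among the 28241 probes measured on both arrays.

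Smad6, the related inhibitory SMAD that acts mainly on BMP receptors, had 1 probe. It stood at -0.85 with vehicle, 1.28 with TGF-β1, 1.46 with CCG1423, 1.57 in clone 1 and 1.30 in clone 2. The vehicle array was again the low one, and the 4 arrays with TGF-β1 differed little among themselves. The TGF-β1 array was 4.36-fold above vehicle (log2 difference 2.13, software error 0.21).

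Pmepa1, the membrane protein that sequesters receptor-regulated SMADs, showed the largest difference of the 10 genes. Its probe stood at 2.24 with vehicle, 6.29 with TGF-β1, 5.68 with CCG1423, 5.82 in clone 1 and 6.44 in clone 2. All 4 arrays with TGF-β1 were far above vehicle, with clone 2 highest and the CCG1423 array lowest among them. TGF-β1 against vehicle was a log2 difference of 4.05 (software error 0.20), 16.5-fold, at rank 13 of those 28241 probes. Ldlrad4, its relative with the same SMAD-binding role, was not well above background with either of its probes on any array (-6.46 to -4.96 and -6.62 to -6.00), so no fold is given.

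Bambi, the kinase-less pseudoreceptor, stood at 1.21 with vehicle, 1.17 with TGF-β1, 1.13 with CCG1423, 1.44 in clone 1 and 0.64 in clone 2. The 3 wild-type arrays were nearly level and the clones lay on either side of them. The difference with TGF-β1 was -0.03 (software error 0.20), and its sign turned with the scaling of the arrays (-0.06 to 0.07).

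The ubiquitin ligases differed by less than 2-fold with TGF-β1, with the Smurf1 difference above that of 95.2% of the 28241 probes measured on both arrays. Smurf1, which SMAD7 carries to the receptor, stood at 3.03 with vehicle, 3.74 with TGF-β1, 3.29 with CCG1423, 3.33 in clone 1 and 3.64 in clone 2, a log2 difference of 0.71 (1.64-fold) between TGF-β1 and vehicle. Smurf2, the other ligase of this pair, read 0.13, 0.46, 0.22, 0.65 and 0.73 in the same order with its first probe (A_52_P576886). Its second probe (A_55_P2124619) read -0.74, -0.25, -0.36, -0.03 and -0.10. Both Smurf2 probes were lowest with vehicle and highest in the clones, with log2 differences of 0.33 and 0.48 between TGF-β1 and vehicle, and both these and the Smurf1 difference are smaller than the 95th percentile of the difference between the clones.

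Among the corepressors, Skil (SnoN) was the most different with TGF-β1. Its brightest probe (A_55_P2904840) stood at 0.65 with vehicle, 2.85 with TGF-β1, 2.71 with CCG1423, 3.001 in clone 1 and 2.95 in clone 2. The vehicle array was low and the 4 arrays with TGF-β1 again differed little among themselves. Its log2 difference between TGF-β1 and vehicle was 2.19 (software error 0.20), 4.57-fold, and the other Skil probes gave 2.11 (A_55_P2934297, error 0.25) and 2.16 (A_55_P2609049, error 0.32). With normexp these were 2.04 for the brightest probe, 1.10 for A_55_P2934297 and 0.91, under 2-fold, for A_55_P2609049. Ski, the founding member of that family, stood at 2.92 with vehicle, 3.70 with TGF-β1, 3.42 with CCG1423, 3.22 in clone 1 and 3.16 in clone 2, which made it 1.71-fold higher with TGF-β1 (log2 difference 0.78). Ski thus had its vehicle array lowest too, by less than the 95th percentile of the difference between the clones. Among probes of similar level that percentile was 0.782, close to the Ski difference of 0.776. The Ski difference was above that of 95.8% of the 28241 probes measured on both arrays.

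Tgif1, the homeodomain corepressor, was the only gene of the 10 with its highest level on the CCG1423 array. Its brighter probe (A_55_P2092526) stood at 1.69 with vehicle, 3.32 with TGF-β1, 4.50 with CCG1423, 3.03 in clone 1 and 3.06 in clone 2. The dimmer probe (A_52_P257590) stood at -2.65, -0.83, -0.10, -1.26 and -1.29 in the same order. Both probes gave the same order of levels, with vehicle lowest, then the clones, then TGF-β1, then TGF-β1 and CCG1423, and the clones were below the wild-type TGF-β1 array by less than the 95th percentile of the difference between clones. TGF-β1 against vehicle was 1.62 on the log2 scale (3.08-fold, software error 0.20) with the brighter probe and 1.83 (3.55-fold, error 0.23) with the dimmer, and with normexp 1.45 and 1.11.

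**Figure D2:**
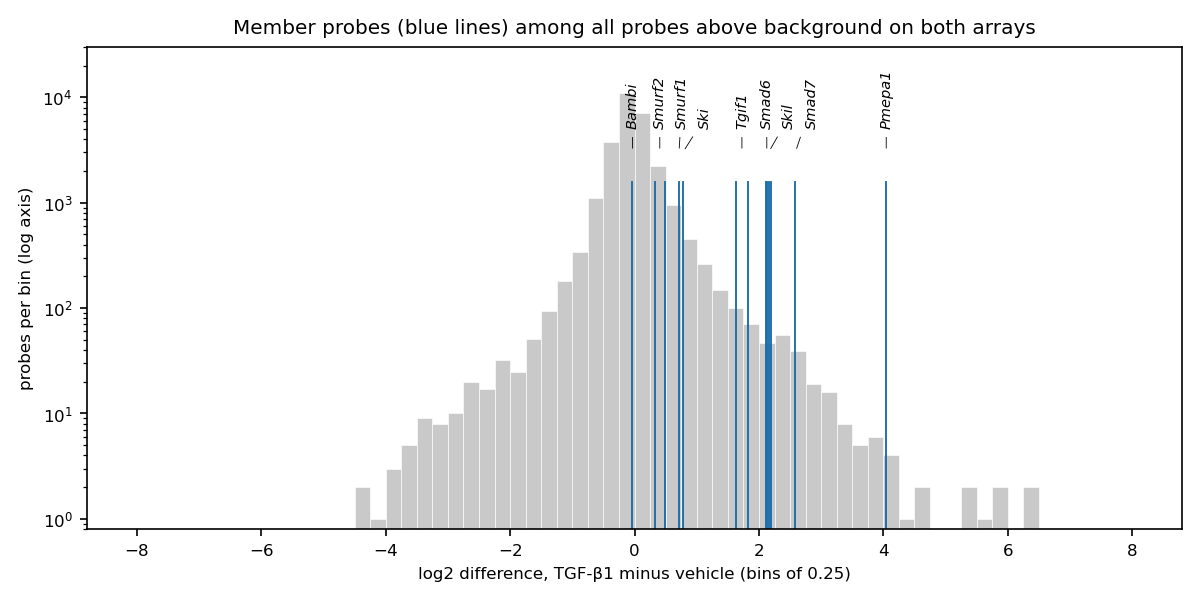
Number of probes (y axis, log scale) by log2 difference between the wild-type TGF-β1 and vehicle arrays (x axis), for the 28241 probes well above background on both arrays. Blue lines are the 13 such probes of the genes described; Pmepa1 is at 4.05, Smad7, Skil, Smad6 and Tgif1 lie between 1.62 and 2.58, and Bambi is at -0.03.

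The second comparison asks what the MRTF pathway inhibitor changed in wild-type cells that received TGF-β1. Tgif1 was higher with CCG1423, and Pmepa1, Smad7 and Smurf1 were lower by less than 2-fold; Ski, Skil, Smad6, Smurf2 and Bambi differed by at most 0.29 on the log2 scale with every probe. Of 14 probes kept, 1, the brighter Tgif1 probe, was at 2-fold or more higher and 0 lower, where 6.94% of all 31508 probes were higher and 6.50% lower, so the count over these genes was near the background. The median log2 difference over the 14 probes was -0.21, and -0.01 over all probes. Nothing here was tested, since each side is 1 array.

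The Tgif1 difference was 1.18 on the log2 scale (2.27-fold, software error 0.20) with the brighter probe and 0.73 (1.66-fold, error 0.21) with the dimmer. The 2 probes thus had 1 direction, and only the first reached 2-fold. Pmepa1 was lower by a log2 difference of -0.60 (software error 0.20), Smad7 by -0.46 and -0.29 with its 2 probes, Smurf1 by -0.45 and Ski by -0.28. All of these but the Tgif1 value of 1.18 are within the 95th percentile of the difference between the clones. Smad6 differed by 0.18, the Skil probes by -0.14, -0.18 and -0.29, Smurf2 by -0.24 and -0.11, and Bambi by -0.04, a sign that turned with the scaling of the arrays.

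The CCG1423 array was also set against the vehicle array, the same array against which the genes above stood high with TGF-β1, so its values are no independent support for those. Its log2 differences from vehicle were 3.44 for Pmepa1 (10.9-fold), 2.30 for Smad6, 2.12 for the brighter Smad7 probe, 2.05 for the brightest Skil probe and 2.80 for the brighter Tgif1 probe (6.98-fold). The corresponding values without the inhibitor were 4.05, 2.13, 2.58, 2.19 and 1.62. Melanocyte markers moved with this array: Mitf, Mlana and Mc1r, 3 of the 8, were at 2-fold or more lower with CCG1423 than with TGF-β1 alone and 0 higher, with a median log2 difference of -0.55 over the 8 and -0.05 over 14056 genes, of which 6.98% were lower and 6.01% higher with 1 probe per gene, and their part in the values above was not tested. The sets of differences from TGF-β1 given for CCG1423 and for the clones share the wild-type TGF-β1 array.

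**Figure D3:**
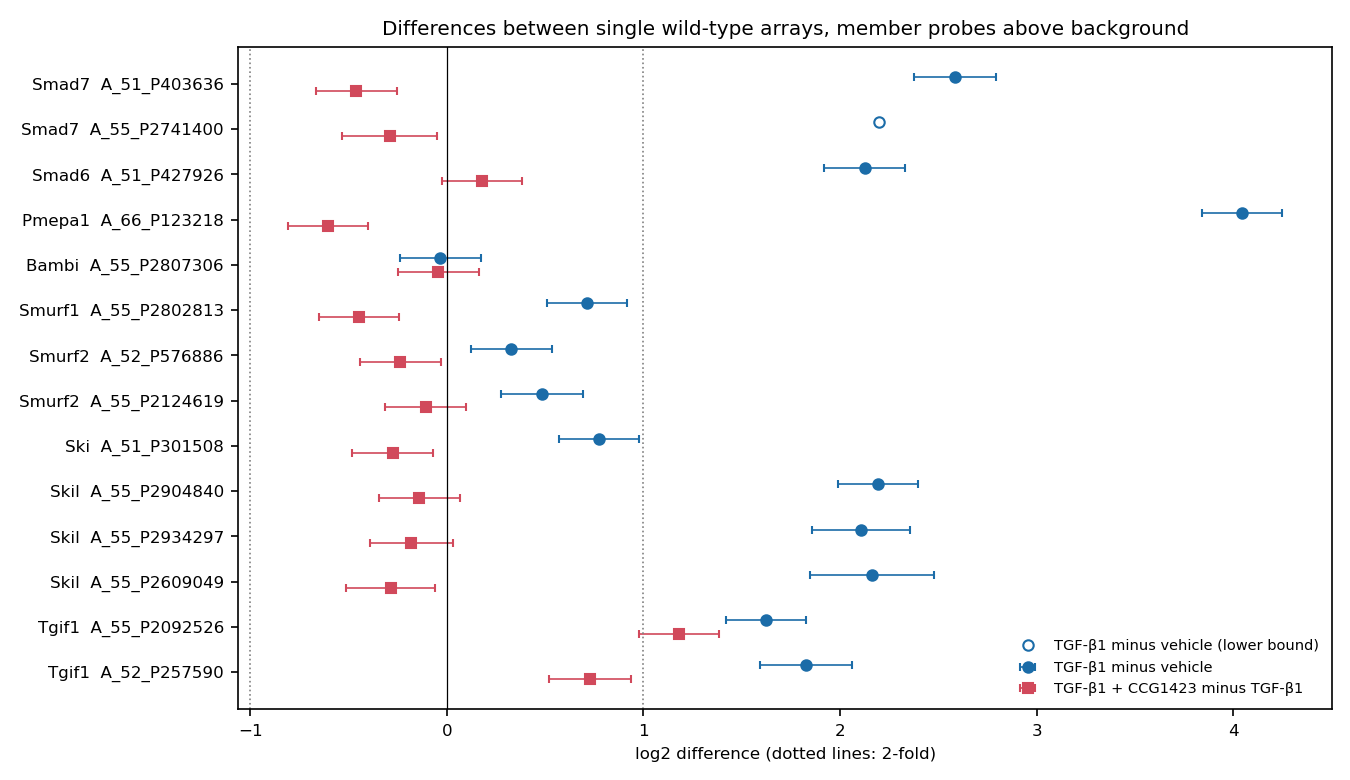
Log2 difference (x axis) of each of the 14 probes between single wild-type arrays, TGF-β1 minus vehicle (circles; the open circle is a lower bound) and TGF-β1 with CCG1423 minus TGF-β1 (squares). Bars are the software's spot error of the difference and dotted lines mark 2-fold; 9 circles lie beyond the upper line, and 1 square, the brighter Tgif1 probe at 1.18, does.

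The third comparison asks whether the TGF-β1 levels of these genes differed in Tmsb4x knockout cells. Ldlrad4, not well above background on any array, was left out of this comparison. None of the other genes was at 2-fold or more from wild type in either clone, and none passed the test. In clone 1, 0 of 14 probes were so called in either direction, where 4.75% of 31897 probes were higher and 3.29% lower. In clone 2 it was 0 of 14, where 4.98% of 31385 probes were higher and 2.66% lower. The limma fit called 0 of the 14 probes in either direction (0 also at an unadjusted p under 0.05), where 0.0393% of 30561 probes were higher and 0.438% lower. Every adjusted p of the 14 was 1.00 and the lowest unadjusted p was 0.111, for Ski (limma). Only the 2 clones give this fit its spread (1 residual degree of freedom), and the wild-type TGF-β1 array is assumed to vary as they do.

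By fitted difference, Ski, the dimmer Tgif1 probe and the brighter Smad7 probe lay lowest in the clones relative to wild type. In a single clone other genes were about as low: Pmepa1 (-0.46) and Smurf1 (-0.41) in clone 1 and Bambi (-0.53) in clone 2. Clone 1 was below wild type by a log2 difference of -0.47 for Ski and clone 2 by -0.54, with a fitted difference of -0.50 (SE 0.28, 95% interval -1.15 to 0.14). The brighter Smad7 probe was at -0.40 and -0.50 (fitted -0.45, interval -1.10 to 0.20), while the dimmer was at -0.01 and -0.13. Tgif1 was lower in both clones with both probes, by fitted differences of -0.27 (interval -0.92 to 0.37) and -0.45 (-1.19 to 0.28). All these intervals include 0, and those of Ski, both Smad7 probes and the dimmer Tgif1 probe also include a level 2-fold lower, so a difference of that size could not be told from none with these arrays.

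Skil and Smad6 were close to wild type in both clones. The brightest Skil probe was at 0.15 in clone 1 and 0.11 in clone 2, with a fitted difference of 0.13 (interval -0.51 to 0.77). Smad6 was at 0.29 and 0.02 (fitted 0.16, interval -0.51 to 0.83), and Smurf2 at 0.19 and 0.27 with its first probe (fitted 0.23, interval -0.43 to 0.88). For Bambi, Pmepa1 and Smurf1, as for Smad6 and the dimmer probes of Smad7 and Skil, the clones differed more from each other than their mean did from wild type. Bambi was 0.80 higher in clone 1 than in clone 2, Pmepa1 0.62 lower and Smurf1 0.31 lower, and the fitted differences from wild type were -0.13, -0.15 and -0.26. The remaining genes above background differed between the clones by at most 0.27 with any probe.

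The clones were set against that same vehicle array too, and a vehicle array that read low would raise all of these values alike. They were above it by 3.58 (clone 1) and 4.20 (clone 2) on the log2 scale for Pmepa1, 2.18 and 2.09 for the brighter Smad7 probe, 2.42 and 2.15 for Smad6, 2.35 and 2.30 for the brightest Skil probe and 1.33 and 1.37 for the brighter Tgif1 probe. These values differ from the vehicle array in genotype as well as in TGF-β1, which cannot be told apart without an untreated knockout. The deposited value table moves all probes of clone 1 against wild type alike, by -0.36, and so turns the sign of 7 of the 14 probes there (Smad6, Bambi and all probes of Skil and Smurf2) and, in clone 2, of Smad6.

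**Figure D4:**
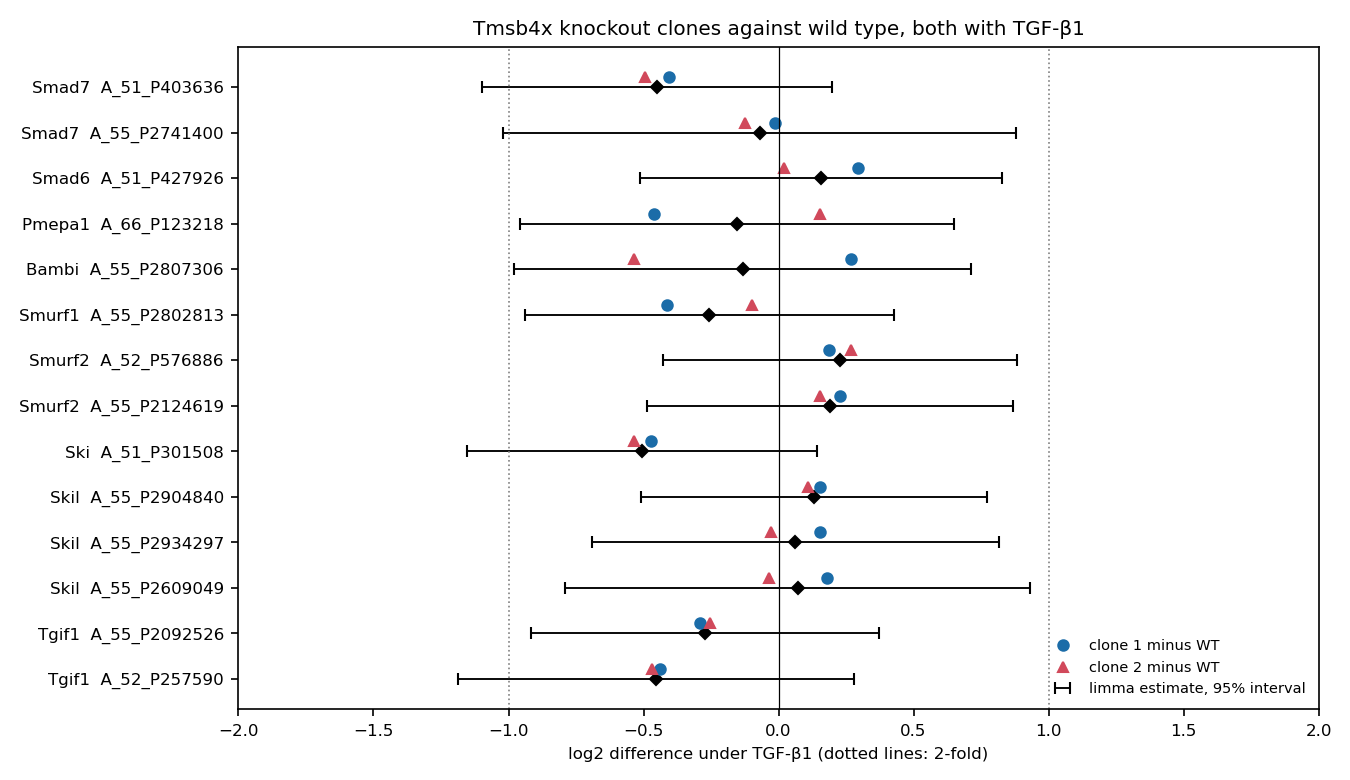
Log2 difference (x axis) of the 14 probes between each Tmsb4x knockout clone and wild-type cells, all with TGF-β1. Circles are clone 1, triangles clone 2, diamonds with bars the limma estimate with its 95% interval, and dotted lines 2-fold; every interval includes 0, and Ski is lowest at -0.50.

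The rest of the pathway was read from 3 lists, with 1 probe per gene, the one with the highest mean level. Of 17 genes for ligands, receptors and signalling SMADs, 16 were kept for TGF-β1 against vehicle, and 1 was at 2-fold or more higher and 0 lower, with a median of 0.08 against -0.05 over 14145 genes, of which 4.95% were higher and 3.27% lower. That gene was Bmpr2, the type II BMP receptor, at 2.56 with vehicle and 3.73 with TGF-β1. The ligand gene Tgfb3 followed at 1.31 and 2.31, while the receptor genes Tgfbr2 (2.58 and 1.87) and Tgfbr3 (-0.20 and -0.85) were the lowest. With CCG1423, 2 of 17 were higher and 0 lower, where 6.01% of 14056 genes were higher and 6.98% lower. Tgfbr3, the co-receptor betaglycan, went from -0.85 to 0.96, and Tgfb1 was above background only there. Smad2 was next (1.55 and 2.22), and Acvrl1 (3.25 and 2.42) and Smad3 (3.66 and 3.05) were lowest. In each clone 0 of 16 were higher and 1 lower, where 4.52% of 14215 genes were higher and 3.34% lower in clone 1 and 4.74% of 14036 higher and 2.73% lower in clone 2; this was Tgfb2, a ligand gene, in clone 1 (-1.46 to -2.50) and Acvrl1, a receptor gene, in clone 2 (3.25 to 1.66).

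The second list held 24 other regulators and ubiquitin enzymes of the pathway, of which 22 were kept in each comparison. With TGF-β1, 1 was at 2-fold or more higher and 1 lower, where 4.95% of 14145 genes were higher and 3.27% lower. The median was -0.02, and -0.05 over all genes. Tsc22d1, a TGF-β-induced leucine zipper protein, stood at 4.60 with vehicle and 6.52 with TGF-β1, and Nedd4l, a ubiquitin ligase for activated SMADs, at 5.84 and 4.77. With CCG1423, 1 was higher and 1 lower, where 6.01% of 14056 genes were higher and 6.98% lower. Usp11, a deubiquitinase, went from 0.56 to 1.65, and Tsc22d1 from 6.52 to 5.43. In both clones 0 of 22 were at 2-fold in either direction. Over all genes, 4.52% were higher and 3.34% lower in clone 1, and 4.74% and 2.73% in clone 2. The 10 genes described, of which Ldlrad4 was above background on no array, therefore held 5 at 2-fold with TGF-β1. This list held 2 of 22 in either direction, near the share over all genes, and the difference was not tested.

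The third list held 20 SMAD target genes, of which 16 were kept. With TGF-β1, 8 of 16 were higher and 0 lower (4.95% and 3.27% of all genes), with a median of 1.02 against -0.05 over all genes. Of the 8, Col1a1 was not well above background with vehicle and was kept only through the array where it was high. Ccn2, a matricellular protein gene, stood at -0.80 with vehicle and 4.99 with TGF-β1. Id1 (-0.04 and -0.66) and Id2 (2.49 and 1.92), inhibitors of helix-loop-helix factors, were the lowest. With CCG1423, 3 were higher and 2 lower, where 6.01% of 14056 genes were higher and 6.98% lower. Ccn1 went from 3.06 to 4.17, Id1 from -0.66 to 0.44 and Fn1, the fibronectin gene, from 7.35 to 8.38, while Col1a1 went from 1.15 to -0.17 and Ccn2 from 4.99 to 3.85. Clone 1 had 1 higher, Col1a1 (1.15 to 2.33), and 1 lower, Id3 (2.39 to 1.16). Clone 2 had 1 higher, Cdkn1a (3.94 to 5.12), and 2 lower, Snai2 (0.74 to -0.88) and Id3 (2.39 to 1.15). Over all genes, 4.52% were higher and 3.34% lower in clone 1, and 4.74% and 2.73% in clone 2. No gene of the 3 lists passed limma's test for the knockout; Id3, lower by more than 2-fold in both clones, had an adjusted p of 0.171 in limma.

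Genes whose profile over the 5 arrays was most like that of Smad7 were ranked by the root mean square difference of log2 levels, each centred on its own mean, over 12057 genes well above background on all 5 arrays. The nearest were Chrm1, a muscarinic receptor gene (0.18), Endod1 (0.19), Dhrs3, an enzyme of retinoid metabolism (0.19), Cald1, the actin-binding caldesmon (0.20), and Pxdc1 (0.21). Of the genes described here, Skil ranked 7 and Smad6 12 by the same measure, and Tgif1 245. For Pmepa1 the nearest were Inava (0.37), Chst11, a chondroitin sulphotransferase gene (0.37), Slc22a23, a transporter family gene (0.42), Calr4 (0.43) and Pdgfb, a growth factor gene (0.49). Skil, Smad7 and Smad6 ranked 20, 21 and 25 there. These ranks rest on 5 arrays that include 1 vehicle array, which sets most of each profile.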

How the data were processed

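RNA of 5 samples was measured on 5 Agilent 1-colour (Cy3) arrays, which share a slide and a scan per the file headers, so no batch could be tested. The submitters' processing notes name Agilent Feature Extraction 12.0.3.1 for the deposited scanner files. Per the file headers, the software subtracted background from the intensity used here, the processed signal, and detrended it, with no scaling between arrays. The deposited value table holds that intensity times a constant per array (log2 of it -0.01, 0.12, 0.34, -0.17 and -0.08 for vehicle, TGF-β1, CCG1423, clone 1 and clone 2); the rule behind the constants is unknown. The well-above-background, saturation and outlier marks and the spot error are also the software's.

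Control spots (3671 per array) and outlier spots were left out, the log2 signal was averaged over a probe's spots (1 spot each for the probes described), and each array's 75th percentile was subtracted, which left 56595 probes. Probes were named by unversioned accession through a RefSeq table of GRCm38.p6 (32988 named, 23607 not); the headers name an older build. A probe entered a comparison if at least 1 of the groups had it well above background throughout. Where the other side was not, its level was raised to the lowest signal well above background on that array, and the fold is written "at least". Differences of single arrays were counted at 2-fold; for the knockout, limma 3.58.1 (R 4.3.3) gave the test (lmFit, eBayes with a mean-variance trend, all 5 arrays in 4 groups, Benjamini-Hochberg over all probes kept, threshold 0.05), checked on simulated data. The labels do not say that samples came from separate cultures, and a p-value here reflects only how these samples vary, which may be technical. Python 3.11.15 (pandas 2.3.3, numpy 2.4.6, matplotlib 3.10.9) did the rest.

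The genes, lists, rules and alternatives were chosen with earlier results of these data known. Named genes were all 10 genes, Tmsb4x, up to 2 highest and 2 lowest genes of each list per comparison (among those above background on both sides; Tgfb1 and other genes outside this were named after their values were seen), and the 5 nearest profiles. A gene that this rule names and a marker gene are not reported here. Differences from the vehicle array were added after the data were seen. Alternatives were other scalings, normexp background correction (offset 50, on median signals, a change from the mean signals planned), the deposited table, other filters, folds and limma settings. The number of arrays limits the precision. Unused columns of the value table numbered 0.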

Additional observations from a re-analysis of the deposited data

How the results depend on the processing

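With 1 probe per gene, the count of probes at 2-fold or more with TGF-β1 was 5 in place of 9, by construction, with the same 5 genes. At a fold of 1.5 the CCG1423 count was 3 in place of 1, with both Tgif1 probes higher and Pmepa1 lower. Normexp gave 7 in place of 9 for TGF-β1: the dimmer Smad7 probe then had a log2 difference of 0.95 and a dimmer Skil probe (A_55_P2609049) one of 0.91. Normexp was run with an added offset of 50 signal units, and the processed signals of these probes with vehicle were 12.2 and 20.5. The cause was not tested. The knockout counts stayed at 0 under every alternative run, also in limma, while limma's calls over all probes ran from 0 with quantile normalization to 702 with no filter, against 146. They were 8 with probes above background on every array, 32 with 1 probe per gene, 276 with normexp, 296 with robust eBayes, 388 with no trend and 526 with the deposited table. Under 3 other scalings and normexp, 13 of 14 probes kept their sign with TGF-β1 and 13 with CCG1423, the exception being Bambi in both; in clone 1 normexp also turned the dimmer Smad7 probe. The deposited table moved the median of all probes by 0.10 for TGF-β1, -0.13 for CCG1423 and -0.36 for clone 1. Leaving out either clone leaves no residual degree of freedom, so those are values with no test, which the clone values already give. Each probe described has 1 spot, so a range over spots was not run. No paired analysis was possible because the groups compared share fewer than 2 replicate numbers. Probes near background, as for Ldlrad4 and the dimmer Smad7 probe, limit what these arrays can show.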
